A study of Rattus norvegicus with 8 samples.

Results

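The transcripts described here are the core genes of the circadian clock, the feedback loop that keeps daily time in most cells of a mammal. They were taken by gene symbol, as Per1, Per2, Per3, Cry1, Cry2, Arntl and Clock, with earlier results of these data known. All 7 were present, each as 1 RefSeq transcript among 16932 transcripts of 16462 gene symbols. All 7 also reached at least 1 FPKM (sequenced fragments per kilobase of a transcript, scaled by the mapped total of the library) in at least 2 libraries, and so belonged to the 9960 transcripts that were tested. The samples were pineal glands of Sprague-Dawley rats, and the labels name no allele or agent. Ages were embryonic day 21, called E21, and then day 5 (P5), day 20 (P20) and day 40 (P40) after birth. Each age had 1 mid-night library (zeitgeber time 19) and 1 mid-day library (zeitgeber time 7), and the daily cycle of the rats was 14 h light to 10 h dark. Each library pooled glands, at E21 of 15 animals at mid-night and 13 at mid-day. The P5 pools held 19 and 17 animals, the P20 pools 10 and 13, and the P40 pools 3 each. With 8 libraries and none repeated, the spread between pools of the same age and time could not be measured. In the main fits the error behind the p-values comes from how much the night to day difference varies between ages. That error mixes spread between pools with real differences between ages. Night against day within 1 age was not tested.

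In the clock, the proteins of Arntl (also called Bmal1) and Clock pair up and switch on genes that carry E-box letters, among them the Per and Cry genes. PER and CRY proteins then return to the nucleus and hold that pair in check, which closes the loop. A second loop acts on Arntl, where ROR proteins activate and REV-ERB proteins repress through a shared DNA element. In the rat pineal gland the night signal is noradrenaline from sympathetic nerves, which raises cyclic AMP and drives melatonin synthesis, and Per1 is known as a gene that cyclic AMP induces there.

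The DNA elements of these loops were looked for next to the start sites of the members, in windows of 250 bases before to 50 bases after the start (RefSeq, build GRCr8). Windows existed for 6 of the 7 members, all but Cry1, with 2 for Clock, so 7 in all among 33469 windows. Both strands were searched for the E-box CACGTG, its variant CACGTT, the D-box TTATGTAA (read by Dbp, Tef and Hlf proteins), the cyclic AMP element TGACGTCA and the ROR and REV-ERB element TAGGTCA. The windows of Per1, Per3 and Clock held no match. The stretches shown cover every window with a match and belong to Per2, Cry2 and Arntl. Each is 30 bases long, on the strand of its gene, with the match in capitals.
Per2 E-box variant, chr9:99497038-99497067, minus strand: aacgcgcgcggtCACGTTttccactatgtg
Per2 D-box, chr9:99497167-99497196, minus strand: ccatgtgcgtcTTATGTAAagagagcgacg
Cry2 E-box variant, chr3:98860632-98860661, minus strand: acacatggtgggAACGTGagggggcggggc
Arntl ROR and REV-ERB element, chr1:176766301-176766330, plus strand: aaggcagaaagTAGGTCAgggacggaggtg
In Per2 the matches began 62 and 192 bases before the start site, in Cry2 212 bases before it and in Arntl 16 bases before it, and none shared bases with another. Of all windows, 4.83% held the E-box variant, 0.893% the D-box and 2.63% the ROR and REV-ERB element. The canonical E-box (6.42% of all windows) and the cyclic AMP element (1.83%) were in none of the 7 windows. A match is a description of the letters, and its absence says only that they are not in this window.

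Between 8598 and 9533 transcripts reached 1 FPKM in a library, and library depths, estimated from the smallest FPKM steps, were 0.411 to 1 times that of P40 mid-night, the deepest. All 10 of 10 pineal markers were listed, with a summed level of 947 to 5686 FPKM. Aanat, the enzyme that sets the melatonin rhythm, had 572 FPKM at mid-night against 6.21 FPKM at mid-day at P20, and 321 against 1.72 FPKM at P40, which fits the time labels of these ages. It had 9.45 FPKM at mid-night against 13.5 FPKM at mid-day at E21, and 225 against 153 FPKM at P5, so it gives no such check of the younger libraries. Choroid plexus markers summed to 17818 FPKM at P5 mid-night, against 3064 FPKM at P5 mid-day. In the P20 and P40 libraries they summed to 732 and 819 FPKM at mid-night, against 553 and 598 FPKM at mid-day, and markers of dividing cells to 17.6 and 19.1 FPKM, against 11.7 and 7.92 FPKM. Matrix and fibroblast markers (6 of 6 listed) summed to 136 and 99.9 FPKM at mid-night, against 156 and 136 FPKM at mid-day. Erythroid markers (3 of 3 listed) summed to 1865 and 1515 FPKM at mid-night, against 4360 and 1239 FPKM at mid-day, and at E21 to 6660 against 11888 FPKM. The part of these cells in the night differences of the clock genes was not tested. All 9 choroid plexus markers were listed, 4 of 5 for dividing cells, and none of those listed was at 0 throughout. As these are bulk libraries, fewer cells of a type and less RNA per cell cannot be told apart.

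The repressor genes Per1 and Per2 differed little between night and day at E21 and P5 and by several-fold at P20 and P40. Per1 (NM_001034125, rn4 chr10:55859851-55868747) encodes the period protein most tied to acute induction. It had 6.15 FPKM at mid-night against 5.24 FPKM at mid-day at E21, and 8.98 against 7.06 FPKM at P5. It then had 11.6 FPKM at mid-night against 2.92 FPKM at mid-day at P20, and 23.8 against 2.26 FPKM at P40. Both older mid-night libraries lay above all 6 others, and both older mid-day libraries lay below all 6 others.

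Per2 (NM_031678, rn4 chr9:90645342-90687509), a period gene whose protein limits its own transcription, followed the same course at a lower level. It had 2.29 FPKM at mid-night against 2.004 FPKM at mid-day at E21, and 1.95 against 1.39 FPKM at P5. The values at P20 were 2.96 FPKM at mid-night against 0.569 FPKM at mid-day, and at P40 4.49 against 0.342 FPKM. The order of the libraries matched that of Per1 in that the older mid-night libraries were the highest and the older mid-day libraries the lowest. The mid-day values at P20 and P40 rested on about 8.37 and 9.46 fragments per kilobase of transcript, estimated from the smallest FPKM steps, so they are the least precise of the values given here.

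Per3 (NM_023978, rn4 chr5:168152693-168187442), the third period gene, was the most abundant member per length in 5 of the 8 libraries. It had 9.95 FPKM at mid-night against 9.46 FPKM at mid-day at E21, 15.8 against 15.3 FPKM at P5, and 18.1 against 15.8 FPKM at P20. At P40 the values were 19.3 FPKM at mid-night against 8.39 FPKM at mid-day. The P40 mid-day library was thus the lowest of the 8, and the P40 mid-night library the highest.

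The cryptochrome genes, whose proteins are the main repressors of the Arntl and Clock pair, went separate ways. Cry2 (NM_133405, rn4 chr3:76802782-76830902) had 5.13 FPKM at mid-night against 4.21 FPKM at mid-day at E21, and 7.62 against 6.23 FPKM at P5. It had 21.4 FPKM at mid-night against 7.80 FPKM at mid-day at P20, and 38.1 against 6.21 FPKM at P40. The older mid-night libraries stood above all 6 others, while the mid-day libraries of P5, P20 and P40 stayed between 6.21 and 7.80 FPKM.

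Cry1 (NM_198750, rn4 chr7:20643879-20709216) had 5.49 FPKM at mid-night against 4.38 FPKM at mid-day at E21, and 5.08 against 3.67 FPKM at P5. It had 2.95 FPKM at mid-night against 3.92 FPKM at mid-day at P20, and 3.16 against 2.75 FPKM at P40. Night and day libraries overlapped at the older ages, and the older mid-night libraries lay below both younger mid-night libraries.

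The activator Arntl (NM_024362, rn4 chr1:171062181-171162426) ran opposite to Per1, Per2 and Cry2 in the older glands. It had 8.39 FPKM at mid-night against 7.68 FPKM at mid-day at E21, and 6.18 against 7.20 FPKM at P5. It had 2.49 FPKM at mid-night against 8.66 FPKM at mid-day at P20, and 1.84 against 8.17 FPKM at P40. The older mid-night libraries lay below all 6 others, and the older mid-day libraries lay above both younger mid-day libraries, a difference that did not pass the test given below. Its partner Clock (NM_021856, rn4 chr14:34218472-34258054) kept within 5.29 to 10.0 FPKM. It had 5.29 FPKM at mid-night against 5.48 FPKM at mid-day at E21, 7.06 against 7.45 FPKM at P5, 8.35 against 6.79 FPKM at P20 and 7.91 against 10.0 FPKM at P40, so night and day values overlapped.

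**Figure D1:**
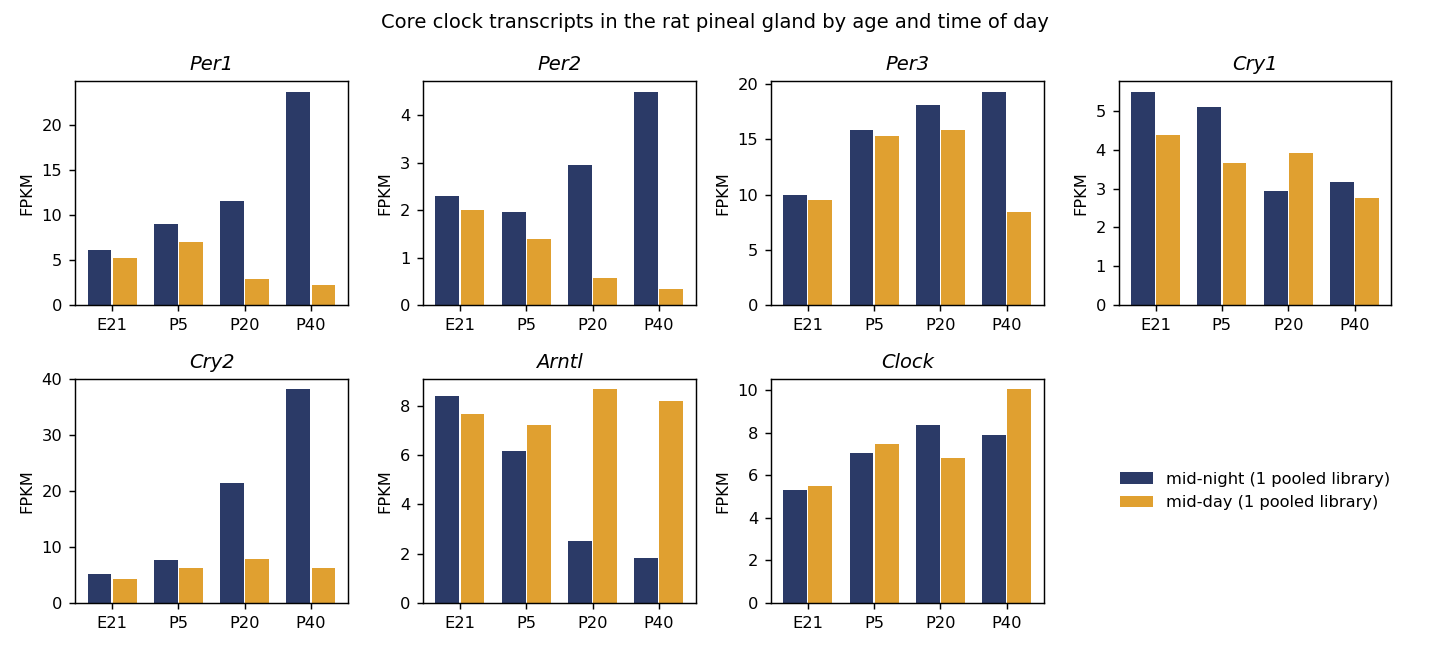
FPKM of the 7 core clock transcripts at each age, with 1 bar per pooled library, mid-night left (dark) and mid-day right (light), each panel on its own scale from 0. Per1, Per2 and Cry2 have their tallest bars at P20 and P40 mid-night, and Arntl its shortest, at 2.49 and 1.84 FPKM.

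At each age the night to day ratio describes the 2 libraries with no test. A member was counted as apart where log2(FPKM + 1) differed by at least 2-fold (1 on the log2 scale) and the higher library had at least 1 FPKM. At E21 and P5 none of the 7 was apart, where 0.783% of all tested transcripts were higher and 1.24% lower at mid-night at E21, and 1.55% and 0.301% at P5. At P20, Per1, Per2 and Cry2 were higher at mid-night, against 2.44% of all transcripts, and Arntl was lower, against 2.72%. At P40, Per1, Per2, Per3 and Cry2 were higher, against 3.04% of all transcripts, and Arntl was again lower, against 1.34%.

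In FPKM, Per2 was 13.1 times and Per1 10.5 times as high at mid-night as at mid-day at P40, and 5.21 and 3.98 times as high at P20. Cry2 was 6.13 times as high at mid-night at P40 and 2.75 times at P20. For Per3 the ratio was 2.30 at P40 and 1.14 at P20. Arntl at mid-night was 0.225 of its mid-day level at P40 and 0.288 at P20. All 5 ratios lay farther from 1 at P40 than at P20. Each rests on 1 library a time, with 3 animals a pool at P40, so the difference between P20 and P40 was not tested.

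**Figure D2:**
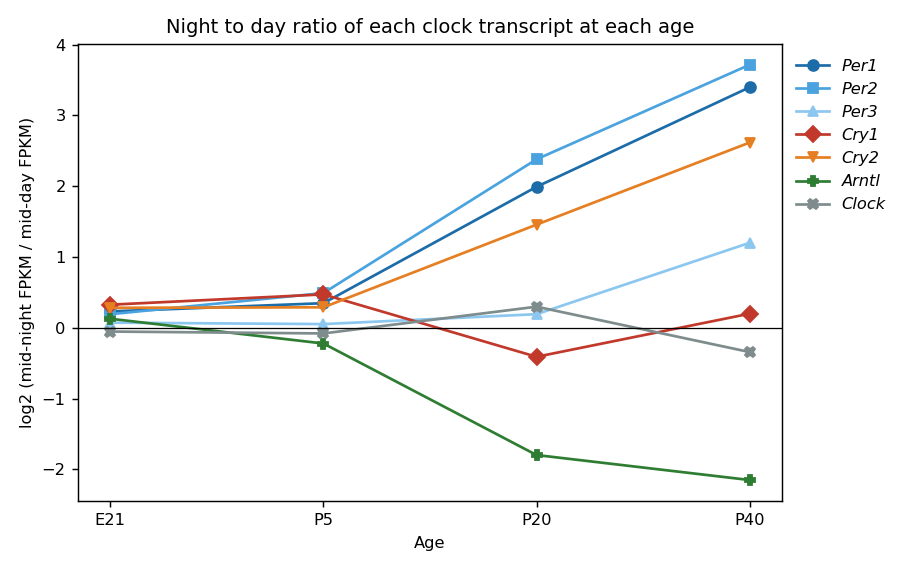
Log2 ratio of mid-night to mid-day FPKM at each age, 1 line per clock transcript and 1 library per time and age, with 0 marking equal levels. The lines lie close to 0 at E21 and P5 and spread at P20 and P40, Per2, Per1 and Cry2 upward and Arntl downward, while Cry1 and Clock stay near 0.

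The fit with 1 night effect for P20 and P40 and 1 for E21 and P5 addresses whether the clock genes differ between night and day in older and in younger glands. At P20 and P40, 3 of the 7 members rose at mid-night, where 2.80% of all transcripts rose, and 1 fell, where 1.59% fell. Per1 rose by 2.31 ± 0.27 on the log2(FPKM + 1) scale (SE; limma, adjusted p = 0.00449). Its level was 17.7 ± 8.60 FPKM at mid-night against 2.59 ± 0.468 FPKM at mid-day (mean ± SD, n = 2 libraries a time). The 2 libraries of such a mean, here and below, differ in age, or in time of day for a mean of 1 age. Their SD is therefore not a spread of replicates. Cry2 rose by 1.89 ± 0.25 (limma, adjusted p = 0.00724), to 29.8 ± 11.8 against 7.01 ± 1.12 FPKM. Per2 rose by 1.68 ± 0.21 (limma, adjusted p = 0.00561), to 3.73 ± 1.08 against 0.455 ± 0.160 FPKM.

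Arntl fell by 1.58 ± 0.17 on the log2 scale at mid-night in the older glands (limma, adjusted p = 0.00334), to 2.17 ± 0.460 FPKM against 8.42 ± 0.346 FPKM at mid-day. Per3 was at 0.65 ± 0.23 (limma, adjusted p = 0.168), Cry1 at -0.08 ± 0.18 (adjusted p = 0.849) and Clock at -0.02 ± 0.19 (adjusted p = 0.968). The median over the 7 members was 0.65, against -0.11 over all tested transcripts. Centring each library on its median or quantile normalization left the same 4 members past the test. Over all transcripts 279 rose and 158 fell, and with median centring 390 rose and 121 fell.

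Without either P40 library, which leaves P20 alone to give the night effect, Cry2 (limma, adjusted p = 0.0507 without P40 mid-day and 0.0506 without P40 mid-night) and Per2 (0.0645 and 0.0678) no longer passed. None of the 4 passed with no filter on FPKM, or with age left out as a term (limma, adjusted p = 0.0665 for Arntl, 0.101 for Per2, 0.105 for Per1 and 0.133 for Cry2). Of all transcripts, none passed with no filter, and with age left out 2 rose and none fell. Over all alternatives the adjusted p ran from 0.00155 to 0.229 for Arntl, 0.00254 to 0.262 for Per1, 0.00275 to 0.260 for Per2 and 0.00416 to 0.263 for Cry2.

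At E21 and P5 no member passed (limma, 0 of 7, and 0 at an unadjusted p under 0.05), where 0.0301% of all transcripts did. Of all 9960, 566 had an unadjusted p under 0.05. The night effects of the younger glands lay between -0.06 ± 0.19 for Clock and 0.33 ± 0.18 for Cry1, with Per1 at 0.25 ± 0.27, Cry2 at 0.24 ± 0.25, Per2 at 0.22 ± 0.21 and Arntl at -0.04 ± 0.17. Their mean levels were 7.56 ± 2.01 FPKM at mid-night against 6.15 ± 1.29 FPKM at mid-day for Per1, and 7.28 ± 1.56 against 7.44 ± 0.336 FPKM for Arntl. A night effect shared by all 4 ages was called for no member either (limma, 0 of 7 against 0% of all transcripts), although 4 of the 7, Per1, Per2, Cry2 and Arntl, had an unadjusted p under 0.05, as did 1011 of all 9960.

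The difference of the night effects, older minus younger, tests whether the mid-night to mid-day difference changes with age. With mid-night and mid-day alone, a daily cycle shifted in time and a weaker one cannot be told apart. Arntl passed, at -1.54 ± 0.24 on the log2 scale (SE; limma, adjusted p = 0.0432), where 0.141% of all transcripts passed in this direction. In the other direction, where 0.612% of all transcripts passed, Per1 was at 2.05 ± 0.39 (adjusted p = 0.0727), Per2 at 1.47 ± 0.30 (0.0908) and Cry2 at 1.65 ± 0.35 (0.104), so none of the 3 was called. Their unadjusted p-values were 0.000846, 0.00130 and 0.00183 (limma). Per3 (0.59 ± 0.32), Cry1 (-0.41 ± 0.26) and Clock (0.03 ± 0.26) did not pass. After quantile normalization and median centring, the calls changed to Per1 (limma, adjusted p = 0.0465 and 0.0453) and Per2 (0.0496 and 0.0484), and Arntl missed (0.0692 and 0.0616). Arntl also missed without each of the 8 libraries in turn (limma, adjusted p = 0.101 to 0.218), where Per1 (0.0170 and 0.0180) and Cry2 (0.0358 and 0.0352) passed without P20 mid-day or P20 mid-night. Over all alternatives the adjusted p of Arntl ran from 0.0252 to 0.797, that of Per1 from 0.0170 to 0.918, that of Per2 from 0.0484 to 0.918 and that of Cry2 from 0.0352 to 0.928.

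**Figure D3:**
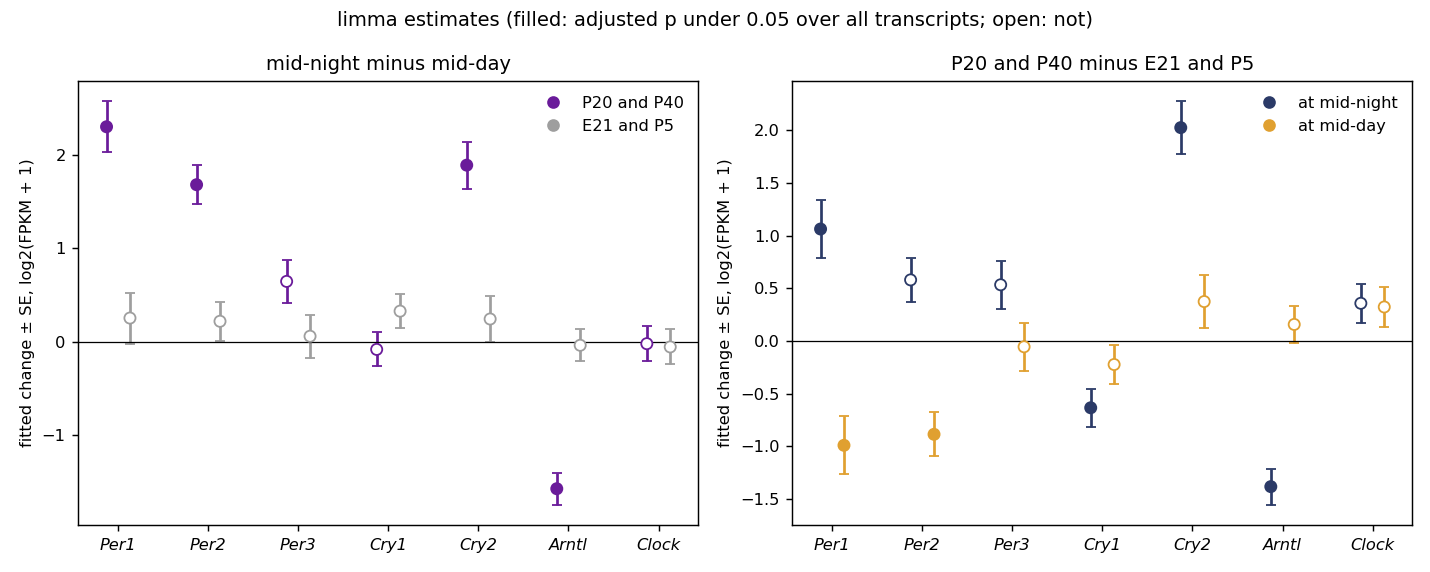
Fitted changes with standard errors on the log2(FPKM + 1) scale for the 7 clock transcripts, mid-night minus mid-day on the left (P20 and P40, then E21 and P5) and P20 and P40 minus E21 and P5 on the right (at mid-night, then at mid-day). Filled points passed at an adjusted p under 0.05: on the left Per1, Per2, Cry2 and Arntl in the older glands, on the right 4 members at mid-night and 2 at mid-day.

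The same fit, and so the same libraries, shows at which time of day the levels moved with age. At mid-night, Cry2 and Per1 were higher in P20 and P40 glands than in E21 and P5 glands, and Arntl and Cry1 were lower. Of all transcripts 11.1% were higher and 29.0% lower in this comparison. The count of lower members, 2 of 7, is near that general share. Marker sums moved with age too. At mid-night pineal markers summed to 4247 and 5686 FPKM at P20 and P40, against 956 and 3204 FPKM at E21 and P5. Markers of dividing cells summed to 17.6 and 19.1 FPKM, against 91.9 and 39.0 FPKM, and matrix markers to 136 and 99.9 FPKM, against 1207 and 575 FPKM. Erythroid markers summed to 1865 and 1515 FPKM, against 6660 and 2657 FPKM, and choroid plexus markers to 732 and 819 FPKM, against 1392 and 17818 FPKM. Their part in the changes of the clock genes with age, at either time of day, was not tested. Cry2 rose by 2.03 ± 0.25 on the log2 scale (limma, adjusted p = 0.00101), to 29.8 ± 11.8 FPKM in older against 6.37 ± 1.76 FPKM in younger glands. Per1 rose by 1.06 ± 0.27 (limma, adjusted p = 0.0190), to 17.7 ± 8.60 against 7.56 ± 2.01 FPKM. Arntl fell by 1.38 ± 0.17 (limma, adjusted p = 0.00103), to 2.17 ± 0.460 against 7.28 ± 1.56 FPKM, and Cry1 by 0.63 ± 0.18 (adjusted p = 0.0281), to 3.05 ± 0.150 against 5.29 ± 0.287 FPKM.

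Per2 (0.58 ± 0.21; limma, adjusted p = 0.0601), Per3 (0.53 ± 0.23; 0.0987) and Clock (0.36 ± 0.19; 0.162) did not pass at mid-night. The median change over all tested transcripts was -0.25 here, and 1102 of them rose and 2887 fell. Median centring, which moves that median to 0.02, split the calls into 1785 higher and 1512 lower. With each library centred on its median, Per2, Per3 and Clock passed as higher (limma, adjusted p = 0.0138, 0.0233 and 0.0447) and Cry1 no longer passed (0.138). Per1 missed without E21, P5 or P40 mid-night (limma, adjusted p = 0.139, 0.131 and 0.222), and Cry1 without E21, P5 or P20 mid-night (0.123, 0.201 and 0.298). Per2 passed without P20 or P40 mid-day (limma, adjusted p = 0.0428 for both), and Per3 without P20 mid-day, P20 mid-night or P40 mid-day (0.0464, 0.0353 and 0.0468). Arntl passed under all 18 alternatives, and Cry2 under all but the one with no filter (limma, adjusted p = 0.0760), with ranges of 0.000451 to 0.0487 and 0.000493 to 0.0760. With no filter Per1 and Cry1 were also lost (0.204 and 0.131), as they were with 4 cell means (0.0999 and 0.0994), and Cry1 after quantile normalization (0.192) or without both P5 libraries (0.0692). Over all alternatives the adjusted p ran from 0.00425 to 0.222 for Per1, 0.0246 to 0.298 for Cry1, 0.00913 to 0.550 for Per2, 0.0233 to 0.855 for Per3 and 0.0447 to 0.857 for Clock.

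At mid-day the members that moved with age were Per1 and Per2, both downward, where 18.2% of all transcripts fell (1814) and 10.7% rose (1070). Median centring changed that split to 1376 lower and 1473 higher, and both members still passed. The count of members called, 2 of 7, is near the general share of both directions together. Per1 fell by 0.99 ± 0.27 on the log2 scale (limma, adjusted p = 0.0319), to 2.59 ± 0.468 FPKM in older against 6.15 ± 1.29 FPKM in younger glands. Per2 fell by 0.88 ± 0.21 (limma, adjusted p = 0.0188), to 0.455 ± 0.160 against 1.70 ± 0.435 FPKM. Cry2 (0.38 ± 0.25), Clock (0.32 ± 0.19), Arntl (0.16 ± 0.17), Per3 (-0.05 ± 0.23) and Cry1 (-0.22 ± 0.18) did not pass. For Arntl the means were 8.42 ± 0.346 FPKM in older and 7.44 ± 0.336 FPKM in younger glands. At mid-day pineal markers summed to 4076 and 4666 FPKM at P20 and P40, against 947 and 3877 FPKM at E21 and P5, markers of dividing cells to 11.7 and 7.92 FPKM, against 118 and 37.4 FPKM, and matrix markers to 156 and 136 FPKM, against 855 and 437 FPKM.

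Neither mid-day call held without E21 mid-day (limma, adjusted p = 0.237 for Per1 and 0.168 for Per2), P5 mid-day (0.154 and 0.0839) or P40 mid-day (0.360 and 0.221), and that of Per1 also missed without E21 mid-night (0.0582) or P5 mid-night (0.0588). Both were also lost with a pseudocount of 5 (limma, adjusted p = 0.0948 for Per1 and 0.0558 for Per2) or no filter (0.263 and 0.171, where 1 of all 16932 transcripts fell and none rose). In this fit a difference in level between the 2 ages of a pair does not enter the error. Under a fit of 4 cell means, where it does, Cry2 and Arntl passed at mid-night and no member at mid-day. Of all transcripts, that fit called 107 higher and 425 lower at mid-night, but only 4 higher and 3 lower at mid-day. Over all alternatives the adjusted p ran from 0.00784 to 0.360 for Per1 at mid-day and from 0.00957 to 0.221 for Per2.

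Over age alone, with a night effect common to all ages, few members were called. Between P40 and E21, Cry2 (1.57 ± 0.49; limma, adjusted p = 0.0335) and Clock (0.64 ± 0.19; adjusted p = 0.0306) were higher at P40, against 16.1% of all transcripts, and none was lower, against 26.8%. Cry2 averaged 22.2 ± 22.5 FPKM at P40 and 4.67 ± 0.645 FPKM at E21, so its P40 libraries straddled a wide range. Clock averaged 8.97 ± 1.50 FPKM at P40 and 5.38 ± 0.138 FPKM at E21. The remaining 5 were Arntl at -0.82 ± 0.43 (adjusted p = 0.157), Cry1 at -0.58 ± 0.22 (0.0627), Per1 at 0.43 ± 0.59 (0.581), Per3 at 0.37 ± 0.27 (0.307) and Per2 at -0.21 ± 0.43 (0.711). Where night and day diverge with age, as in Cry2, that divergence counts as error here. Median centring split the calls over all transcripts into 2175 higher and 2004 lower, where 1602 rose and 2674 fell without it.

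Cry2 no longer passed for P40 against E21 without E21 mid-night (limma, adjusted p = 0.208), P20 mid-day (0.0537), P20 mid-night (0.0538) or P40 mid-night (0.259), with no filter (0.206), robust eBayes (0.0797) or no time term (0.120). Clock no longer passed without either E21 library (0.114 without mid-day and 0.119 without mid-night) or either P40 library (0.229 and 0.0604), or with no filter (0.0710). Calls appeared for Per1 and Per3 without P40 mid-day (limma, adjusted p = 0.0470 and 0.0364), Cry1 without P20 mid-day or mid-night (0.0385 and 0.0388) and Arntl without E21 mid-day (0.0465). Over all alternatives the adjusted p ran from 0.00471 to 0.259 for Cry2 and from 0.0159 to 0.229 for Clock, and from 0.0385 to 0.268 for Cry1, 0.0465 to 0.759 for Arntl, 0.0470 to 0.888 for Per1 and 0.0364 to 0.735 for Per3. No member passed for P5 against E21 (15.1% of all transcripts did), for P20 against P5 (7.02%) or for P40 against P20 (0%, with 669 of 9960 at an unadjusted p under 0.05). At an unadjusted p under 0.05 the count of members in each of these 3 steps was also 0. Of all 9960 transcripts, 3132 were under it for P5 against E21 and 2446 for P20 against P5. The test over all ages together called no member (limma, 0 of 7, with 1 at an unadjusted p under 0.05), against 36.4% of all transcripts. Of all 9960, 4805 had an unadjusted p under 0.05 in that test.

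Ratios of 2 members within a library do not depend on how the libraries are scaled to each other. The ratio of Arntl to its partner Clock was 1.59 at mid-night against 1.40 at mid-day at E21, and 0.875 against 0.966 at P5. It was 0.299 at mid-night against 1.28 at mid-day at P20, and 0.233 against 0.815 at P40. The 2 activator transcripts were thus at similar levels in younger glands and in older glands by day, and Arntl was well below Clock in older glands by night.

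The ratio of Cry2 to Cry1 was 0.934 at mid-night against 0.963 at mid-day at E21, and 1.50 against 1.70 at P5. It was 7.27 at mid-night against 1.99 at mid-day at P20, and 12.1 against 2.26 at P40. The ratio of Per1 to Per2 lay within 2.61 to 6.60 in all 8 libraries, at 5.29 at mid-night against 6.60 at mid-day at P40, so this ratio varied less than the others. Ratios of a repressor to the activator Arntl spanned more. Cry2 over Arntl was 20.7 at mid-night against 0.760 at mid-day at P40, and 0.611 against 0.549 at E21. Per1 over Arntl was 12.9 at mid-night against 0.276 at mid-day at P40, and 0.733 against 0.682 at E21.

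**Figure D4:**
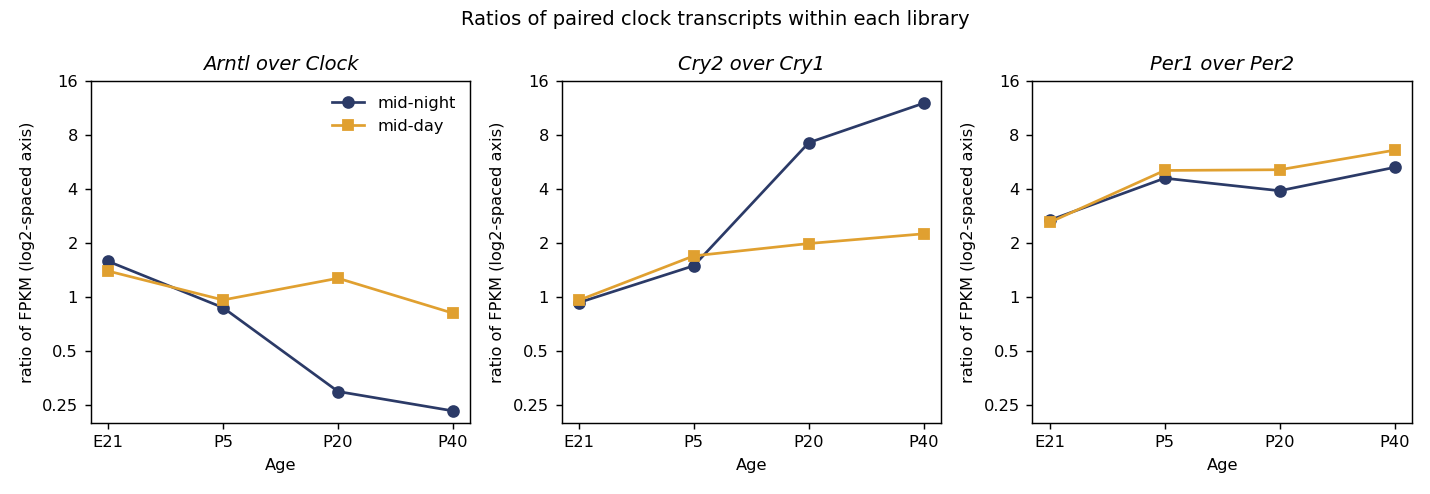
Ratios of FPKM within each library for Arntl over Clock, Cry2 over Cry1 and Per1 over Per2 by age, mid-night (circles) and mid-day (squares), on a log2-spaced axis, with 1 library per point. The first 2 ratios part between night and day at P20 and P40, while Per1 over Per2 stays within 2.61 to 6.60.

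The order of the members by level, per length, changed with it. At P40 mid-night the order was Cry2 (38.1 FPKM), Per1 (23.8), Per3 (19.3), Clock (7.91), Per2 (4.49), Cry1 (3.16) and Arntl (1.84). At P40 mid-day it was Clock (10.0 FPKM), Per3 (8.39), Arntl (8.17), Cry2 (6.21), Cry1 (2.75), Per1 (2.26) and Per2 (0.342). At E21 the levels lay closer together, with Per3 highest and Per2 lowest in both libraries (9.95 and 2.29 FPKM at mid-night, 9.46 and 2.004 FPKM at mid-day). Neighbours such as Per3 and Arntl at P40 mid-day lie closer than the 2 P40 libraries do for Clock, which has no called night difference, so their order is not resolved.

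Among other parts of the clock, the genes of the second loop and of its outputs were listed for 8 of 14 names, of which 7 were tested. Between P40 and E21, 4 of these rose and none fell, where 16.1% of all transcripts rose and 26.8% fell, at a median of 0.67 against -0.18 over all transcripts. They were Nr1d1, the REV-ERB alpha gene (33.8 and 26.8 FPKM at P40 mid-night and mid-day, against 5.68 and 5.42 FPKM at E21), Dbp, an activator at D-boxes (42.5 and 19.3 against 9.35 and 12.2 FPKM), Bhlhe40, a repressor at E-boxes (16.1 and 5.71 against 2.78 and 2.93 FPKM), and Rora, an activator at the ROR element (7.16 and 10.2 against 5.16 and 4.84 FPKM). For night against day at P20 and P40 none of the 7 passed, where 2.80% of all transcripts rose and 1.59% fell. The median was 0.30 against -0.11. Dbp was nearest to the threshold at 0.85 ± 0.22 (limma, adjusted p = 0.0735).

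Of 25 kinases, ubiquitin ligases and other proteins that act on the clock proteins, 20 were listed and tested. At P20 and P40, Usp2 rose at mid-night, where 2.80% of all transcripts rose and 1.59% fell. It was the one member of the 20 that passed in either direction, a count near the share over all transcripts. The list median was -0.07, against -0.11 over all transcripts. Usp2, a deubiquitinating enzyme known to act on clock proteins, had 14.3 and 20.1 FPKM at mid-night against 6.72 and 8.17 FPKM at mid-day (1.09 ± 0.17; limma, adjusted p = 0.0123). Between P40 and E21, 4 of the 20 rose and 6 fell, where 16.1% of all transcripts rose and 26.8% fell, at a median of -0.02 against -0.18. These shares are near those over all transcripts. Those past the test with the highest mean FPKM were Ppp1ca, a catalytic subunit of protein phosphatase 1 (-0.84 ± 0.22), Nono, a partner of PER proteins (-1.16 ± 0.18), the phosphatase Ppp5c (0.72 ± 0.22) and Btrc, the ligase subunit that marks PER proteins for breakdown (0.72 ± 0.17).

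Between P40 and E21, Csnk1e, a casein kinase gene whose enzyme phosphorylates PER proteins, fell (-1.02 ± 0.19; limma, adjusted p = 0.00418), and Csnk1d, which encodes a related kinase, was at -0.51 ± 0.18 (adjusted p = 0.0534). Timeless, named for the fly clock gene and known in mammals for its part in DNA replication, fell (-2.24 ± 0.18; adjusted p = 0.000108). These 3 were chosen after their values were seen.

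For each member the 3 transcripts with the most similar profile over the 8 libraries were taken, by the root-mean-square difference of log2(FPKM + 1) values centred on their own mean, among 5616 tested transcripts averaging at least 5 FPKM. For Cry2, whose own values spread by 0.944 around their mean, they were the homeobox gene Prox1 (difference 0.146), Glt8d3 (0.225) and the cholesterol exporter Abca1 (0.236). Prox1 had 24.0 FPKM at mid-night against 4.79 FPKM at mid-day at P40, and 3.29 against 3.38 FPKM at E21. For Arntl (own spread 0.649) they were Zfp238 (0.167), the cell-cycle phosphatase Cdc25a (0.224) and Tob2 (0.226). Zfp238, a zinc finger repressor, had 11.6 FPKM at mid-night against 31.3 FPKM at mid-day at P40.

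For Per1 (own spread 0.872) the nearest were Tinagl1 (0.273), the receptor gene Igf1r (0.335) and Fam107b (0.349), and for Per2 (own spread 0.626) Arl5b (0.161), Midn (0.196) and Prickle1 (0.220). Tinagl1 had 12.1 FPKM at mid-night against 0.689 FPKM at mid-day at P40. The nearest to Per3 (own spread 0.401) was Tef, a D-box activator (0.169), followed by Moap1 (0.173) and Dusp5 (0.179). The flatter profiles of Cry1 (own spread 0.270) and Clock (0.251) had Pxn (0.0663), Ccdc97 (0.0882) and Tor2a (0.0965), and Ide (0.0778), Btd (0.0809) and Dnm1l (0.0897), as their nearest. The smaller distances of these 2 go with their own smaller spread.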

How the data were processed

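Poly(A)-enriched RNA of pooled glands was sequenced as paired ends, 4 libraries to a lane with the lane of each not given. The authors deposited FPKM values, 1 for each RefSeq transcript, made with TopHat 1.3.1 and Cufflinks 1.2.0 on genome build rn4, per the submitters' processing notes. Filters and further scaling are not given in the sources used here. The table of all libraries and each of the 8 single-library tables held the same values. File starts count from 0 (olfactory receptor spans are whole codons in 99.7% of 1191), so 1 was added.

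The scale was log2(FPKM + 1), on which changes of low transcripts such as Per2 come out too small. Transcripts reaching 1 FPKM in 2 or more libraries, 9960 in all, entered fits with limma 3.58.1 (R 4.3.3), using eBayes with a mean trend and two-sided p-values adjusted by Benjamini-Hochberg over the whole table (threshold 0.05). One fit had age and time of day, leaving 3 residual degrees of freedom. The other had age and 2 night effects, younger (E21, P5) and older (P20, P40), leaving 2 residual degrees of freedom. The older night effect of the second fit was tried on simulated data with 1 spread common to all transcripts. It recovered 91 of 100 changes of 1 on the log2 scale, and 2 of 9760 unchanged transcripts were called. The fit with age and time of day was not scored this way. Read counts were not used here, so no counting intervals are given. Relative depth came from the smallest steps between FPKM values of short olfactory receptor transcripts (up to 1100 bp).

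Members, lists, tests and most alternatives were chosen with earlier results of these data known. A list gene with several transcripts was taken by the one with the highest mean FPKM. Named genes were all members, up to 4 per list (highest mean FPKM past the test), and the 3 nearest profiles per member. Csnk1e, Csnk1d, Timeless, Dbp for its night effect, Npas2 and Arntl2 fall outside this rule and were picked with their values in view. The alternatives tried were pseudocounts of 0.1 and 5, no filter, a filter at 5 FPKM, quantile normalization, median centring, robust eBayes, eBayes without trend, no time term, leaving out each library or both P5 libraries, and, added after seeing the data, 4 cell means with no age term.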

Additional observations from a re-analysis of the deposited data

Results flagged for a closer look

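For Arntl the night effect differed between older and younger glands, by a test of the difference itself. The night effect at P20 and P40 minus that at E21 and P5 was -1.54 ± 0.24 on the log2 scale (SE; limma, adjusted p = 0.0432), with both older ages lower at mid-night (1.84 and 2.49 FPKM) than at mid-day (8.17 and 8.66 FPKM). The call is sensitive to the setting, with an adjusted p of 0.0252 to 0.797 over 18 alternatives, 4 of which kept it.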

How the results depend on the processing

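Over 750 pairs of a member's log2 change and an alternative, 635 kept direction and side of the threshold, 67 no longer passed, 23 newly passed and 25 reversed, and the cause was not tested. No alternative called a member for night against day at E21 and P5, over 4 ages, or for P5 against E21, P20 against P5 or P40 against P20. A pseudocount of 5 left 2 members at least 2-fold apart at P20 (4 with a pseudocount of 1) and 2 at P40 (5). The count of members called for P40 against E21 (2) was 0 with no filter, 1 with robust eBayes and 1 with no time term. For night against day at P20 and P40 (4) it was 0 with no filter, where no transcript of all 16932 passed. It was also 0 with 4 cell means, where 2 of all transcripts rose and none fell. For the difference of night effects (1) it was 0 with a pseudocount of 5, no filter, 4 cell means or without both P5 libraries, and 2 with quantile normalization or median centring. Of all transcripts, 61 rose and 14 fell in the main fit of this difference. With a pseudocount of 5, 33 rose and 4 fell, and none passed with no filter or 4 cell means. For older against younger at mid-night (4) the count of members called was 1 with no filter and 2 with 4 cell means. At mid-day (2) it was 0 with a pseudocount of 5, no filter or 4 cell means, and 1 with the filter at 5 FPKM, which Per2 does not pass, or without both P5 libraries. Reversed values, none of which passed in either fit, were Per2 at 0.0503 for P40 against E21 (quantile), Arntl at 0.11 for night at E21 and P5 (without both P5 libraries), Cry1 at 0.0403 and 0.0278 and Clock at 0.0564 and 0.0892 for night at P20 and P40 (quantile, median centring), and Per3 at 0.0321, 0.0740 and 0.264 for mid-day with age (quantile, median centring, without both P5 libraries).

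With each library left out in turn, the counts of members called ran from 0 to 3 for P40 against E21, 0 to 1 for the test over all ages, 2 to 4 for night at P20 and P40, 0 to 2 for the difference of night effects, 2 to 6 for older against younger at mid-night and 0 to 2 at mid-day. Without any one of the E21 or P40 libraries, fewer of all tested transcripts passed in the comparison of these ages too. The same held for the night effect of older glands without any one of their libraries, and for the difference of night effects without any single library. Lost calls were thus not limited to the clock genes. Log2 changes that reversed ran from -0.67 to 1.53 for Per1, -0.93 to 0.51 for Per2 and -0.14 to 0.87 for Per3 for P40 against E21, and from -0.19 to 0.11 for Arntl at night at E21 and P5. For night at P20 and P40 they ran from -0.32 to 0.15 for Cry1 and -0.31 to 0.26 for Clock, for the difference from -0.25 to 0.32 for Clock, and for mid-day with age from -0.52 to 0.41 for Per3, -0.45 to 0.0105 for Cry1 and -0.17 to 0.92 for Cry2.

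No replicates could be paired, because each age and time of day has 1 pooled library. Night and day were matched within each age by the age term. A fit without both P5 libraries gives no value for the contrasts with P5. Depth limits Per2 most, whose mid-day values at P20 and P40 rest on few fragments.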

Other observations

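Npas2 and Arntl2 encode close relatives of the CLOCK and ARNTL proteins that can stand in for them. Npas2 had 5.21 FPKM at mid-night against 5.40 FPKM at mid-day at E21, 11.8 against 13.7 FPKM at P5, 14.6 against 8.60 FPKM at P20 and 6.22 against 8.49 FPKM at P40. Its night effect at P20 and P40 was 0.15 ± 0.25 (limma, adjusted p = 0.788). Arntl2 stayed at or under 0.423 FPKM in all 8 libraries and was listed at 0 in 3 of them, so it was not tested.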
